A study of Mus musculus with 3 samples.

Results

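Acute phase genes encode plasma and secreted proteins whose output changes sharply after injury, and 6 of them are described here: *Saa3*, *Saa1*, *Saa2*, *Lcn2*, *Hp* and *Orm1*. They were taken by gene symbol from the 32285 genes counted in each of 3 Visium slides, and all 6 symbols were found once. Visium captures polyadenylated RNA of a tissue section on an array of barcoded spots, and each captured molecule is counted by its unique molecular identifier (UMI). A spot is a small region that can hold several cells, and since UMIs count transcript ends they are not scaled by gene length. The sections came from full-thickness excisional wounds in the dorsal skin of adult male C57BL/6J mice without a transgene, and were labelled as skin wound tissue of Day 3, Day 7 and Day 14. There was 1 section per day, and no separate section of unwounded skin was analysed here, so no test between days was possible. Every interval below is a 95% interval. It covers counting error only, except that intervals of shares of spots count each spot as 1 independent trial. The paper labels wound site, intact skin and muscle within these sections, so levels pooled over a section mix them.

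Serum amyloid A proteins, lipocalin 2, haptoglobin and orosomucoid 1 are best known as products of the liver, which releases them when interleukin 6 and interleukin 1 signal through STAT3, C/EBP and NF-kappaB factors. Several are also made outside the liver: SAA3 by activated macrophages, adipocytes and stromal cells, lipocalin 2 by neutrophils and epithelium, and haptoglobin and orosomucoid 1 by fat. SAA proteins bind lipid and attract leukocytes, lipocalin 2 withholds iron from bacteria by binding their siderophores, haptoglobin binds free haemoglobin, and orosomucoid binds small lipophilic molecules.

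All 6 are protein coding. In the GENCODE M21 annotation of GRCm38, *Saa3* (ENSMUSG00000040026) lies on the minus strand of chromosome 7 from 46711998 to 46715700, *Saa1* (ENSMUSG00000074115) on the minus strand from 46740497 to 46742980, and *Saa2* (ENSMUSG00000057465) on the plus strand from 46751790 to 46754313. With *Saa4* they form a cluster of 4 genes over 42.3 kb. *Lcn2* (ENSMUSG00000026822) lies on the minus strand of chromosome 2 from 32384633 to 32388252, *Hp* (ENSMUSG00000031722) on the minus strand of chromosome 8 from 109575128 to 109579172, and *Orm1* (ENSMUSG00000039196) on chromosome 4 (plus strand, 63344560 to 63348163). Reads of near-identical copies could be lost or split. No window of 100 bases was shared exactly between the longest coding transcripts of *Saa1*, *Saa2*, *Saa3* and *Saa4*, whereas 6.95% of the windows of *Orm1* also occur in *Orm2*. In spots under tissue *Orm2* gave 0 UMIs on Day 3 and 1 on each later day, and *Orm3* gave 1, 7 and 0.

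The promoters of the 3 *Saa* genes are shown because these neighbours differed widely in count, and that of *Lcn2* because it too was highest on Day 3. RefSeq (GRCm38.p6) held a promoter for 4 of the 6 genes, and *Hp* and *Orm1* were not matched. The starts used here are those of RefSeq and can differ from the GENCODE positions above. The *Lcn2* window lies wholly within the GENCODE span of the gene. Each run covers 250 bases before the gene's start and 50 bases from it, written 5′ to 3′ on the gene's strand, at chr7:46715627-46715926 for *Saa3*, chr7:46742931-46743230 for *Saa1* and chr2:32387690-32387989 for *Lcn2*, all on the minus strand, and at chr7:46751583-46751882 on the plus strand for *Saa2*. Capitals mark matches to the C/EBP motif TTNNGNAA on either strand.
Saa3: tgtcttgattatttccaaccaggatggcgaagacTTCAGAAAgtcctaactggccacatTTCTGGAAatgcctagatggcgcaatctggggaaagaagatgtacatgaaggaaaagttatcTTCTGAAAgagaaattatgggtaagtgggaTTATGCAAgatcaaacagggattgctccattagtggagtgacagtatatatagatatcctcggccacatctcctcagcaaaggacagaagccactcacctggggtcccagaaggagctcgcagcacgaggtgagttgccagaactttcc
Saa1: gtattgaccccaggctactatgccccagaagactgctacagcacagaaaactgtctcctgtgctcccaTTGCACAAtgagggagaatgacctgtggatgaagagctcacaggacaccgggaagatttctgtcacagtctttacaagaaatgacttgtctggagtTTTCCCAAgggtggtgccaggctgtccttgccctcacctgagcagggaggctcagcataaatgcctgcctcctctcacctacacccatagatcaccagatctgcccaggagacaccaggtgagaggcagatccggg
Saa2: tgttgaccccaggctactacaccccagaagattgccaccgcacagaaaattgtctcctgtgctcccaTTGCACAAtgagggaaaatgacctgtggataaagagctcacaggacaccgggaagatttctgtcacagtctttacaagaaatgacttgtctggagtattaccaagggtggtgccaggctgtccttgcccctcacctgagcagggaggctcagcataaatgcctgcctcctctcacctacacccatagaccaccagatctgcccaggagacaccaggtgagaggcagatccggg
Lcn2: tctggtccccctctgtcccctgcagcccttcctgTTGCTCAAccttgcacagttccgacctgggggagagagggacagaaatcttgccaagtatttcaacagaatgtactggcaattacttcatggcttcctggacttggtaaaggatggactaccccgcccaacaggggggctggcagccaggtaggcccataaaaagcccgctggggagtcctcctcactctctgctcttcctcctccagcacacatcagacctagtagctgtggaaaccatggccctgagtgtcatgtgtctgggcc
The *Saa3* window held 4 matches, at 216, 191, 129 and 99 bases before the start, against 2 in *Saa1* and 1 each in *Saa2* and *Lcn2*. A match of this motif is common, since 40.7% of 32851 promoters of the same length hold at least 1. None of the 4 windows held the STAT motif TTCNNNGAA or the NF-kappaB motif, which occur in 8.30% and 8.46% of the promoters, and no 2 matches overlapped.

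Of the cluster on chromosome 7, *Saa3* was the gene detected in the wound sections. *Saa3* under tissue gave 1613 UMIs on Day 3, then 68 on Day 7 and only 19 by Day 14. *Saa1*, whose product circulates on high density lipoprotein in the acute phase, gave 3, 2 and 2 UMIs on the same days. *Saa2*, its close relative, gave 1 UMI on Day 3 and none later, and *Saa4* gave none on any day. These counts are at or under the limit of 3 UMIs that a count of 0 allows, so no ratio is given for *Saa1* or *Saa2*. The liver's own genes were nearly absent too: of 10 hepatocyte markers, 5 had no UMI on Day 3, 3 on Day 7 and 5 on Day 14, and the highest other than *Cyp2e1* had 4, 7 and 9 UMIs. *Cyp2e1* had 297, 356 and 70 UMIs, and 51.9% of the Day 3 spots richest in the hepatocyte list were also among those richest in the fat list.

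The first comparison asked how the genes changed over healing (shown in the plot of levels by day). *Saa3*, *Lcn2* and *Hp* were lower on both later days than on Day 3, and *Orm1* was not distinguishable between days at this depth. Taking genes with 50 or more UMIs summed over both sections, 3 of 4 members were at least 2-fold lower on Day 7 than on Day 3, where 6.49% of 10541 genes were that much lower, and 3 of 4 on Day 14, where 6.83% of 10955 genes were. None was at least 2-fold higher, against 8.04% of genes at the first of these steps and 14.4% at the other. *Lcn2* entered the Day 7 count with 42 UMIs on Day 3 and 8 on Day 7, and *Saa3* the Day 14 count with 1613 and 19. Their Day 3 UMIs carried them past the minimum, so these counts are partly set by the filter. Between Day 7 and Day 14, 1 of 3 members, *Saa3*, was at least 2-fold lower, against 7.34% of 11746 genes, and none of the 3 was higher, against 10.9%. *Lcn2*, with 8 UMIs on Day 7 and 30 on Day 14, was under the minimum and not counted. Its log2 ratio was 1.85 (0.69 to 3.19). All genes together had a median log2 ratio of 0.04 from Day 3 to Day 7, 0.18 from Day 3 to Day 14 and 0.13 between the later sections.

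**Figure D1:**
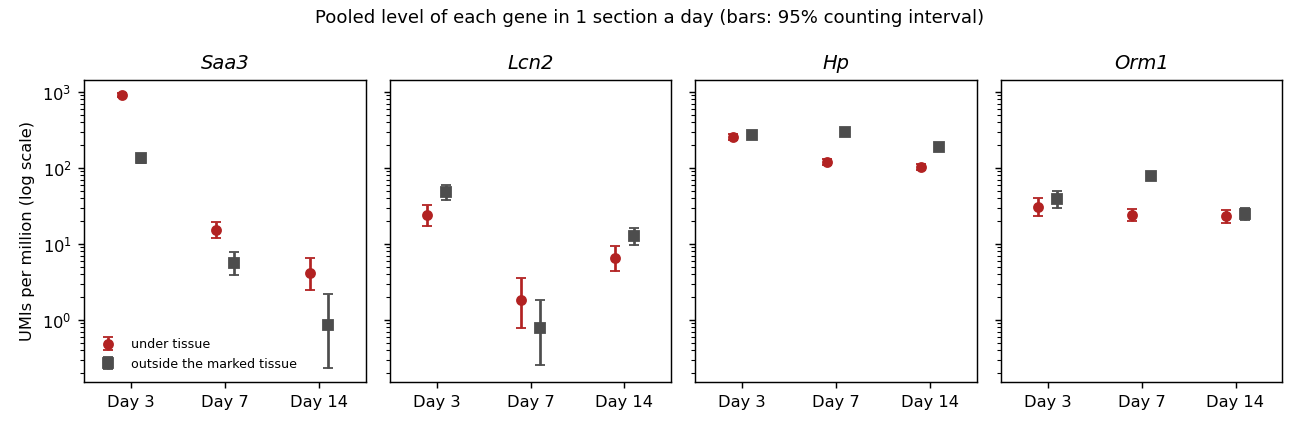
Pooled level of *Saa3*, *Lcn2*, *Hp* and *Orm1* in UMIs per 1000000 on a log axis, for spots under tissue (red circles) and outside the marked tissue (grey squares) on Day 3, Day 7 and Day 14, with 95% counting intervals. *Saa3* spans from 910.1 under tissue on Day 3 to 4.12 on Day 14, *Lcn2* is lowest on Day 7, and *Hp* and *Orm1* lie within a narrower range.

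*Saa3* had the steepest course. Its level, in UMIs per 1000000 UMIs of all genes (CPM), was 910.1 on Day 3 (866 to 956), then 15.3 on Day 7 (11.9 to 19.4), then 4.12 on Day 14 (2.48 to 6.43), and no interval met another. Day 7 was 59.5-fold lower than Day 3, a log2 ratio of -5.89 (-6.27 to -5.54), the seventh lowest of 10541 genes by the upper bound of the interval. Day 14 was 221-fold lower than Day 3, with a log2 ratio of -7.79 (-8.52 to -7.14), and the fall from Day 7 to Day 14 was a further 3.71-fold. In pooled values such as these, fewer cells that make a transcript and less RNA per cell cannot be told apart. The neutrophil list of 10 marker genes fell over the same days, from 2180 CPM to 119 and 120.3, and the macrophage list from 3003 to 1566 and 663, and their part in the result was not tested.

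*Lcn2* was lowest on Day 7 and partly returned on Day 14. Its count was 42 UMIs on Day 3, or 23.7 CPM (17.1 to 32.0), 8 on Day 7, or 1.80 CPM (0.777 to 3.55), and 30 on Day 14, or 6.51 CPM (4.39 to 9.29). Day 7 was 13.2-fold lower than Day 3, with a log2 ratio of -3.72 (-5.02 to -2.61), and Day 14 was 3.64-fold lower. Day 14 lay above Day 7 by 1.85 on the log2 scale (0.69 to 3.19), from 38 UMIs in all, so the size of that difference is poorly fixed. The neutrophil list stayed level between Day 7 and Day 14 under tissue.

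*Hp* changed least among the 3 genes that were lower after Day 3. Its level was 257 CPM on Day 3 (234 to 282), 120.2 CPM on Day 7 (110.2 to 131) and, at the last time, 103 CPM (93.9 to 113). Day 7 was 2.14-fold lower than Day 3, with a log2 ratio of -1.10 (-1.28 to -0.91), and for Day 14 the ratio to Day 3 was -1.32 (-1.51 to -1.13). The fall depended on where the gene was counted: over all spots of the slide the Day 7 ratio came to -0.25, and without the 10% of spots richest in fat markers to -0.63, both under a 2-fold difference. *Orm1* stood at 31.0 CPM on Day 3 (23.4 to 40.4), 24.1 CPM on Day 7 (19.7 to 29.1) and, by Day 14, 23.0 CPM (18.8 to 27.8). All 3 intervals overlapped, and the first ratio, Day 7 to Day 3, was -0.37 (-0.85 to 0.13) on the log2 scale under tissue and 0.69 over the whole slide.

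The next comparison asked where within the Day 3 section the genes lay. *Saa3* occupied 2 compact patches in the upper part of the section. *Hp* ran as a band through the upper part of the section and along its lower edge. *Orm1* sat at a few places near the left end. *Lcn2* was sparse under tissue, with at most 2 UMIs in a spot, and lay mostly outside it (shown in the maps of the Day 3 slide). Outside, *Lcn2* was at 13.9 CPM, from 3 UMIs, within 1.5 pitches of the marked tissue, and at 48.6 CPM from 1.5 to 5 pitches, 50.9 from 5 to 10 and 59.8 farther away. *Saa3* had a UMI in 252 of 664 spots, and the 10 richest spots held 32.1% of its UMIs, with 99 in the richest. Of the spots, 45 had at least 10 *Saa3* UMIs, a limit chosen after the map was seen. They formed 7 groups of adjacent spots, of which the largest had 21 spots and 662 UMIs and the next 18 spots and 353 UMIs. The largest patch measured 5 by 5.20 spot pitches in a section 51.5 pitches wide, and held 41.0% of *Saa3* in 2.64% of all UMIs.

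**Figure D2:**
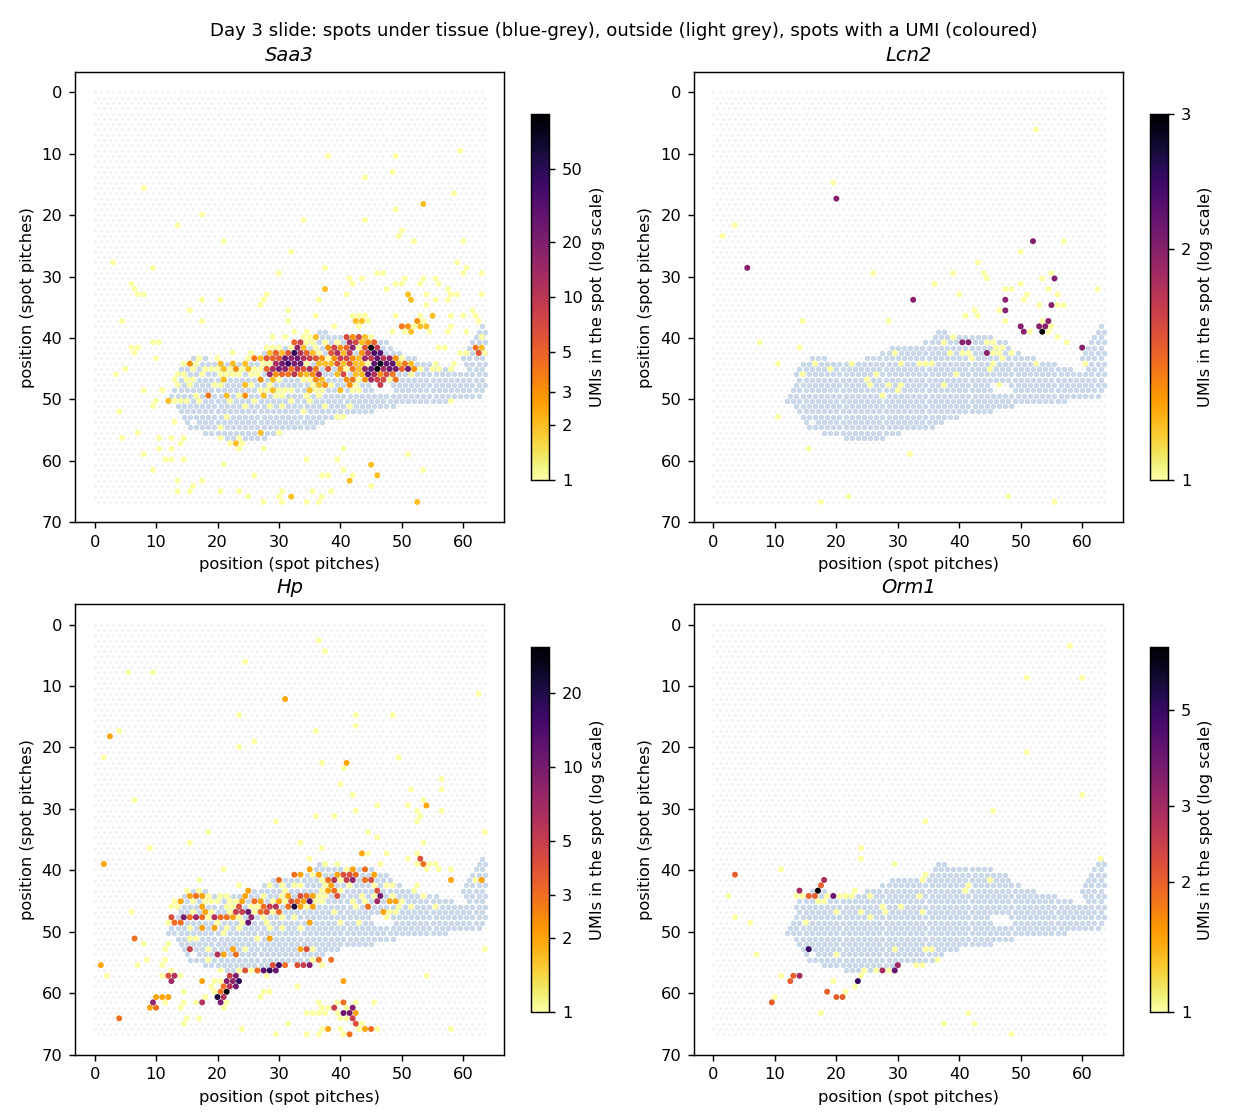
Maps of the Day 3 slide with positions in spot pitches for *Saa3*, *Lcn2*, *Hp* and *Orm1*; each coloured dot is a spot with at least 1 UMI, coloured by its UMIs on a log scale, over spots under tissue in blue-grey and outside in light grey. *Saa3* forms 2 dense patches under tissue with up to 99 UMIs in a spot, and *Lcn2* has at most 3 UMIs in a spot.

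Moran's I, which compares each spot with its neighbours and is 0 without spatial clustering, gave *Saa3* the highest value of 3083 genes with at least 100 UMIs on Day 3, at 0.622 against a median of 0.102. Depth varied across the section too, so 426 spots with enough UMIs were also thinned to 1000 UMIs each. *Saa3* then had 0.617, the third highest, where the median gene had 0.0216, over fewer spots and UMIs. *Hp* had 0.182 on Day 3 and 0.10 after thinning, and ranked 432 of the same genes. After thinning *Hp* had 0.0555 on Day 7 and -0.0123 on Day 14, and *Orm1*, with enough UMIs to be ranked only on the later days, had -0.0304 on Day 7 and 0.0763 on Day 14. *Lcn2*, with 42 UMIs on Day 3, had 0.115, and 0.104 after thinning.

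Along the width of the Day 3 section, cut into 10 equal parts from left to right, *Saa3* rose at 2 places (shown in the plot along the section). It was at 85.9 to 158 CPM in the first 3 parts, 1140.2 in the fourth, 629 and 689 in the fifth and sixth, 8008 in the seventh and 3574 in the eighth. *Hp* was highest in the seventh part too, at 538 CPM, and next in the third, at 387 CPM, where the fat list peaked at 10470.1 CPM. *Lcn2* was highest in the seventh part, at 129 CPM from 11 UMIs, and *Orm1* in the first, at 81.6 CPM from 19 UMIs. Depth fell across the same axis: the first 6 parts held 232723 to 316517 UMIs each, the seventh 85539 and the ninth 7789. *Saa3* was also highest in the seventh part by count, with 685 UMIs.

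**Figure D3:**
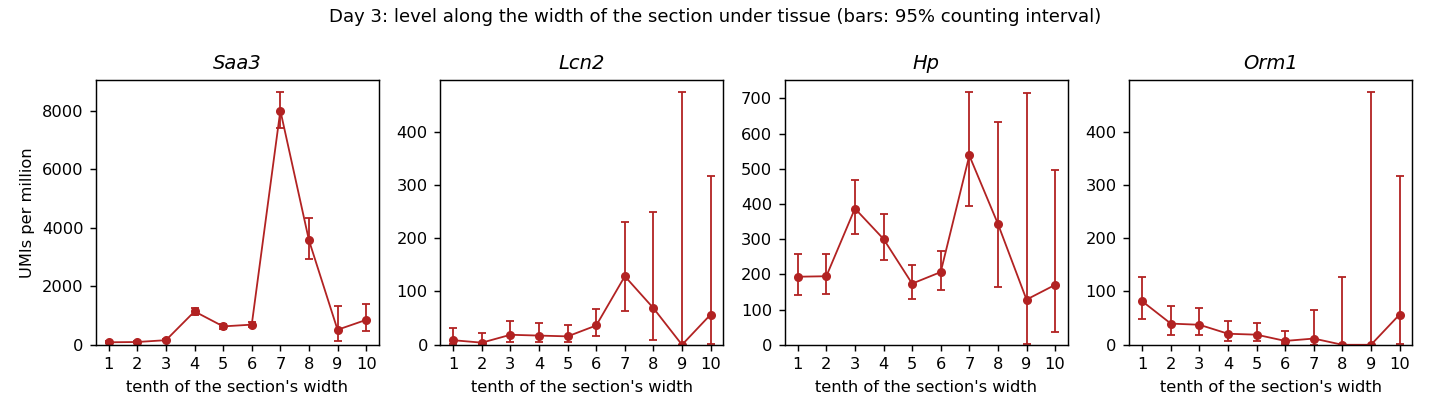
Level of *Saa3*, *Lcn2*, *Hp* and *Orm1* in UMIs per 1000000 in each of 10 equal parts along the width of the Day 3 section under tissue, with 95% counting intervals. *Saa3* peaks in the fourth part at 1140.2 and in the seventh at 8008, and the intervals widen in the last parts, which hold few UMIs.

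The largest *Saa3* patch differed from the rest of the section in other genes that did not choose it. *Hp* was at 770.2 CPM in the patch and 243 CPM elsewhere, which is 1.66 on the log2 scale (1.13 to 2.15), from 36 and 420 UMIs. *Lcn2* was at 149.8 and 20.3 CPM, a log2 ratio of 2.88 (1.47 to 4.08), from 7 and 35 UMIs. *Orm1* gave 1 UMI in the patch and 54 elsewhere, with a log2 ratio of -0.55 (-5.88 to 1.99). *Hp* was therefore higher in a place where the fat list was lower, with a log2 ratio of -1.22 (-1.51 to -0.94). The neutrophil list differed by 1.16 on the log2 scale, the granulation list by 0.99, the macrophage list by 0.75 and the fibroblast list by 0.43, while the epidermis list was lower by -1.67 and the muscle list by -0.70.

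Spots were then grouped by what surrounded each gene: for each list of markers, the 10% of spots richest in it were compared with all other spots of the section, over spots with at least 500 UMIs. On Day 3 this set 52 of 520 spots against 468, and the classes could share spots. The lists and the genes overlap in tissue, so these are descriptions of surroundings, and a spot rich in a cell type's markers holds other cells as well. Of the 3 genes with at least 50 UMIs in these spots, 1 was at least 2-fold higher in neutrophil-rich spots, where 8.64% of 5637 genes were, 1 in granulation-rich spots (8.3% of genes), 2 in fat-rich spots (5.22%) and 1 in epidermis-rich spots (7.43%).

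*Saa3* was higher in neutrophil, macrophage, granulation and fibroblast surroundings and lower in fat, epithelium and muscle (shown in the plot of surroundings). It was at 2484 CPM in granulation-rich spots and 753 CPM in the others, or 1.72 on the log2 scale (1.56 to 1.88). The ratio was 1.53 (1.31 to 1.75) for neutrophil-rich spots, 1.53 (1.34 to 1.72) for macrophage-rich spots and 0.93 (0.77 to 1.08) for fibroblast-rich spots. It was -1.42 (-1.82 to -1.04) for fat, -2.01 (-2.33 to -1.71) for epidermis and -0.78 (-1.08 to -0.49) for keratinocytes of the wound edge. In muscle-rich spots *Saa3* had 2 UMIs against 1607, a log2 ratio of -5.22 (-8.27 to -3.37). Neutrophil-rich and granulation-rich spots shared 25 of 52 spots, so these classes are not separate.

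*Saa3* was highest beside the neutrophil-rich spots rather than in them. With increasing distance from neutrophil-rich spots, *Saa3* was at 2435 CPM within them, 3187 in spots 1 pitch away, 944 at 2 to 3 pitches, 1661 at 4 to 6 and 248 at 7 or more. *Lcn2* was at 132 CPM within them, 61.9 at 1 pitch and 11.5 to 13 beyond. In the 5% of spots richest in the neutrophil list the *Saa3* ratio fell to 0.61, and in the richest 20% it was 1.96. Away from muscle-rich spots *Saa3* was 25.7 CPM within them, 126 at 1 pitch, 233 at 2 to 3, 1082 at 4 to 6 and 1548 at 7 or more.

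**Figure D4:**
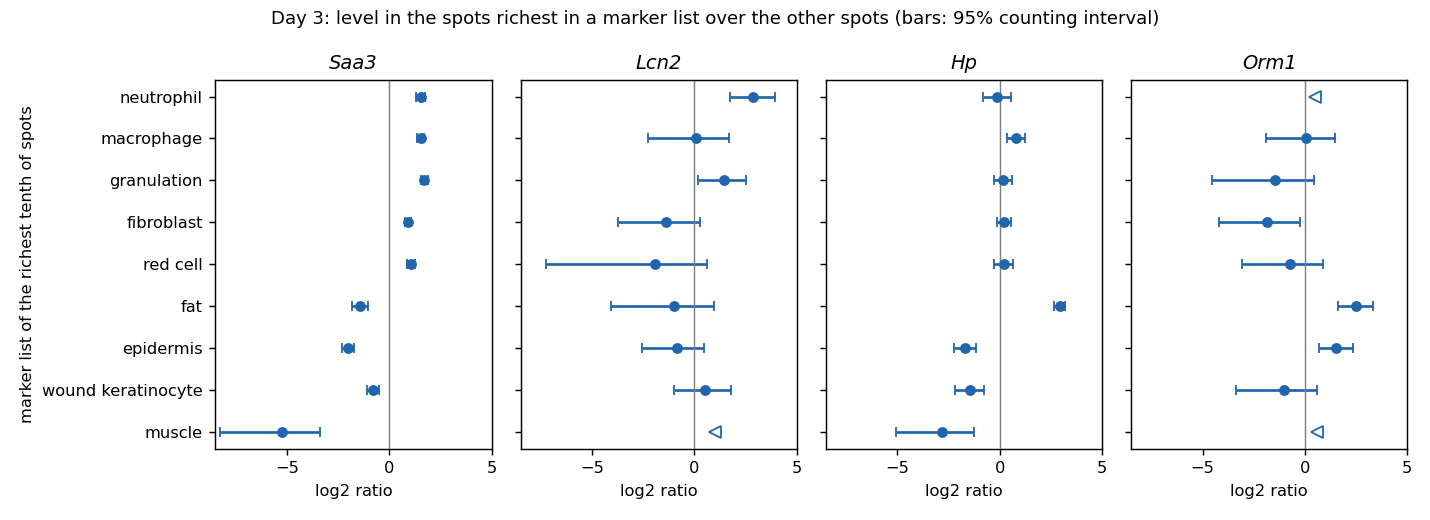
Log2 ratio of the level in the 10% of Day 3 spots richest in each of 9 marker lists over the other spots, for *Saa3*, *Lcn2*, *Hp* and *Orm1*, with 95% counting intervals; an open triangle marks the upper bound where the richest spots had no UMI. *Saa3* lies right of 0 for the inflammatory and stromal lists, *Lcn2* for neutrophil and granulation, *Hp* for fat and macrophage, and *Orm1* for fat and epidermis.

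*Lcn2* was higher in neutrophil-rich spots on Day 3, and on Day 14 outside the marked tissue but not distinguishably under it. On Day 3 it gave 11 UMIs in neutrophil-rich spots and 30 in the others, or 132 and 17.9 CPM, with 2.88 as the log2 ratio (1.73 to 3.92). Its ratio in granulation-rich spots was 1.43 (0.17 to 2.53), and the interval held 0 for macrophage, fibroblast, fat and both epithelial lists. The same grouping among spots outside the marked tissue, added after the map was seen, gave 24 UMIs in neutrophil-rich spots and 11 in the others, which is 5.17 on the log2 scale (4.09 to 6.35). On Day 14 the ratio outside was 3.15 (2.31 to 4.0), from 27 and 25 UMIs, and under tissue it was 0.80 (-1.17 to 2.33). Outside on Day 14 the red cell list gave a like ratio, 3.21 (2.37 to 4.07). On Day 7 none of the 8 UMIs under tissue lay in neutrophil-rich spots, and 4 lay in epidermis-rich spots. The neutrophil list in the class under tissue was at 10674 CPM on Day 3, but 439 on Day 7 and 450 on Day 14. Both later values are below the 1734 CPM of the other Day 3 spots. In the Day 14 class outside the list was at 2043 CPM. The later classes under tissue thus held little neutrophil signal.

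*Hp* was higher in fat-rich spots on every day (shown in the plot of classes by day). It was at 1228 CPM in them on Day 3 (1063 to 1411), 337 CPM on Day 7 (275 to 409) and, later, 379 CPM on Day 14 (314 to 454), and at 160.1, 104 and 82.9 CPM in the other spots. The log2 ratios were 2.94 (2.66 to 3.21), 1.69 (1.36 to 2.0) and 2.19 (1.88 to 2.5). At least 2-fold higher in fat-rich spots were 2% of genes on Day 7, with *Hp* among the 3 counted, and 1.65% on Day 14, with *Hp* among the 2 counted. In the spots outside the marked tissue the ratios were 3.88, 2.82 and 4.46. *Hp* was also higher in macrophage-rich spots on Day 3, by 0.80 (0.36 to 1.21), and its neutrophil ratio was -0.11 (-0.84 to 0.53). It was lower in epidermis-rich spots, by -1.69 (-2.25 to -1.18), and in muscle-rich spots, by -2.80 (-5.09 to -1.25).

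*Orm1* was higher in fat-rich and epidermis-rich spots on Day 3 and in epidermis-rich spots on Day 14. On Day 3 fat-rich spots held 20 of its 55 UMIs, at 123 CPM against 22.0, or a log2 ratio of 2.49 (1.62 to 3.32), and epidermis-rich spots held 23, with a ratio of 1.51 (0.67 to 2.32). On Day 7 neither ratio under tissue excluded 0, at 0.49 (-0.61 to 1.44) for fat and 0.54 (-0.42 to 1.38) for epidermis. On Day 14 epidermis-rich spots held 57 of 106 UMIs, at 70.5 against 12.9 CPM, a log2 ratio of 2.45 (1.88 to 3.03), and the fat ratio was -0.90 (-2.80 to 0.50). At least 2-fold higher in epidermis-rich spots on Day 14 were 3.78% of 10029 genes, with *Orm1* among the 2 counted. Outside the marked tissue on Day 14 *Orm1* was higher in both, with ratios of 2.73 (2.12 to 3.32) for fat and 2.43 (1.81 to 3.03) for epidermis, and differences between days were not tested. The classes were not alike in content. Fat-rich spots under tissue had the fat list at 29728 CPM for Day 3, 11594 for Day 7 and 3418 for Day 14. The Day 14 fat-rich spots outside had it at 18863 CPM. Epidermis-rich spots under tissue had the epidermis list at 29682.5, 14798 and 29383 CPM in the same day order. A change of *Orm1* from fat to epidermis therefore cannot be read from these ratios.

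**Figure D5:**
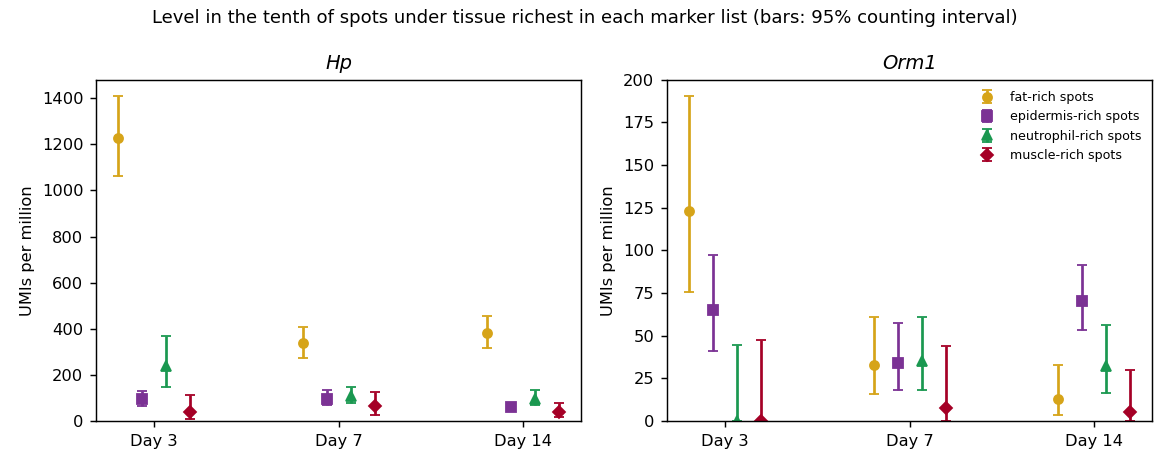
Level of *Hp* and *Orm1* in UMIs per 1000000 in the 10% of spots under tissue richest in fat, epidermis, neutrophil or muscle markers on Day 3, Day 7 and Day 14, with 95% counting intervals. *Hp* is highest in fat-rich spots on each day, from 337 to 1228. *Orm1* is highest in fat-rich spots on Day 3, at 123, and in epidermis-rich spots on Day 14, at 70.5. Each class is drawn within its own section, so its marker content differs between days.

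Correlations across spots gave the genes that varied most like each one. They describe spots that share a slide, its depth and its tissue layers, and the value after thinning, where given, stands in parentheses. For *Saa3* on Day 3, over 664 spots and 3082 genes, these were *Cxcl12*, a chemokine of stromal cells, with r = 0.51 (0.43 after thinning), *Sfrp2*, a secreted Wnt modulator, with 0.47 (0.40), *Rarres2*, which encodes chemerin, with 0.47 (0.42), the metallothionein *Mt2* with 0.47 (0.34) and the lysosomal protease *Ctsb* with 0.46 (0.37). The lowest were *Trdn* with -0.19 (-0.22), *Eef1a2* with -0.18 (-0.23) and *mt-Atp8* with -0.17 (-0.19). The first 3 stayed the first 3 after thinning.

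For *Hp* on Day 3 they were *Cfd*, which encodes adipsin, with r = 0.37 (0.26 after thinning), *Cyp2e1* with 0.36 (0.20), *Trf*, which encodes transferrin, with 0.35 (0.22), *Grn* with 0.33 (0.18) and the lipid droplet gene *Cidec* with 0.32 (0.21), and the lowest were *Myoz1* with -0.09 (-0.12), *H19* with -0.08 (-0.05) and *Srl* with -0.08 (-0.07). On the later days the values were weak. *Hp* on Day 7 was led by *Fabp4* with 0.30 (0.14), *Cidec* with 0.27 (0.00039), *Cfd* with 0.26 (0.08), *Piezo1* with 0.25 (-0.0077) and *Dgat2* with 0.25 (0.09). On Day 14 it was led by *Scd1* with 0.27 (0.06), *Cfd* with 0.26 (0.06), *Col1a2* with 0.24 (0.04), *Sppl3* with 0.23 (0.01) and *Perp* with 0.23 (0.08). *Orm1* on Day 14 was led by *Krtdap* with 0.31 (0.12), *Krt10* with 0.31 (0.08), *Hal* with 0.29 (0.03), *Klk7* with 0.28 (-0.04) and *Krt80* with 0.28 (0.10), of which *Krtdap*, *Krt10* and *Klk7* belong to the differentiating epidermis. On Day 7 the highest for *Orm1* was *Mrpl22* with 0.21 (0.17), which is weak in counts this sparse. Between members on Day 3, *Saa3* had r = 0.23 with *Hp* (0.17 after thinning), sharing 110 spots, 0.19 with *Lcn2* (0.13) and -0.03 with *Orm1*.

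Detection in single spots followed the same order. After thinning to 1000 UMIs, *Saa3* was found in 32.4% of 426 spots on Day 3 (28.0 to 37.1), 1.90% of 525 on Day 7 (0.917 to 3.47) and 0.589% of 679 on Day 14 (0.161 to 1.5). *Hp* was found in 17.4%, 10.5% and 7.51% of the same spots. In muscle-rich spots, which should lack both, *Saa3* was found in 0 of 39, 0 of 47 and 0 of 65 spots, which allows shares of up to 9.03%, 7.55% and 5.52%, and *Hp* in 2.56% (0.0649 to 13.5), 6.38% (1.34 to 17.5) and 3.08% (0.375 to 10.7). The muscle-rich spots are too few to set a background below the *Saa3* shares of Day 7 and Day 14. Pooled over all UMIs, *Hp* in muscle-rich spots was at 37.3 CPM on Day 14 (15.0 to 76.9), below its level of 103 CPM over the section (93.9 to 113), and at 62.8 CPM on Day 7 (27.1 to 124), an interval that meets that of the section. Spots too shallow to be thinned numbered 238, 24 and 18. The median depth was 1513, 6687 and 4827 UMIs over all spots and 1677, 2439 and 2852 over muscle-rich spots, and the unthinned shares were 38.0%, 9.11% and 2.58% for *Saa3* and 26.8%, 52.8% and 38.2% for *Hp*.

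Between 49.0% (Day 3) and 59.2% (Day 7) of a slide's UMIs fell on spots that the position lists did not mark as tissue, and the members differed in how they divided. *Saa3* was lower outside than under tissue on each day, whereas *Lcn2*, *Hp* and *Orm1* were as high or higher outside on some days. On Day 3, of 4 genes with at least 50 UMIs, 1 was at least 2-fold higher outside, against 3.4% of 7998 genes, and 1 at least 2-fold lower, against 15.9%. On Day 7, of 3 genes, 2 were higher, against 3.36% of 11525 genes, and 1 lower, against 8.91%. On Day 14 none of 3 was at least 2-fold higher, against 2.46% of 11475 genes. Spots outside were shallow, with a median of 91, 453 and 350 UMIs on Day 3, Day 7 and Day 14. Under tissue the median was 1513, 6687 and 4827 UMIs. Of the 4328 spots outside on Day 3, 3654 had under 500 UMIs.

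*Saa3* was at 133 CPM outside on Day 3, or 0.146 times the level under tissue (0.127 to 0.168), with 12.3% of its UMIs outside. On Day 7 it was at 0.364 times (0.236 to 0.553), with 34.6% of its UMIs outside. On Day 14 it was at 0.206 times (0.0509 to 0.620), from 4 UMIs outside and 19 under tissue. *Lcn2* was at 47.6 CPM outside (37.8 to 59.1), 2.01 times the level under tissue (1.37 to 2.99), with 65.9% of its UMIs outside, and on Day 14 at 12.7 CPM (9.71 to 16.4), 1.96 times. With only the outside spots of at least 500 UMIs the Day 3 log2 ratio of *Lcn2* was 0.19, and it was no longer 2-fold. The neutrophil list was 2.21 times higher outside on Day 3, 0.993 times on Day 7 and 2.22 times on Day 14.

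*Hp* was near equal on Day 3, at 1.07 times (0.939 to 1.22), and higher outside on Day 7, at 295 CPM or 2.45 times (2.23 to 2.71), and on Day 14, at 188 CPM or 1.82 times (1.63 to 2.04). *Orm1* was at 78.1 CPM outside on Day 7, 3.24 times the level under tissue (2.63 to 4.03), with 82.5% of its UMIs outside, and near equal on Day 3, at 1.25 times (0.860 to 1.82), and Day 14, at 1.09 times (0.830 to 1.43). The fat list was 1.68, 2.19 and 2.04 times higher outside on Day 3, Day 7 and Day 14. On Day 7 fat-rich spots outside held 391 of the 485 *Orm1* UMIs and 1225 of the 1807 *Hp* UMIs in spots of at least 500 UMIs. The *Orm1* level there was 293 CPM against 21.1 in the other spots outside. In these fat-rich spots outside, the fat list was at 44641 CPM on Day 7, and in the fat-rich spots under tissue at 11594 CPM. The paper's appendix describes the selected spots of each section as the region of interest, so an unmarked spot need not be free of tissue. Whether these spots hold unmarked tissue was not tested.

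The other genes of the acute phase pathway were counted from 5 lists, 65 genes beside the 6, of which 64 are in the files and 38 had at least 50 UMIs in the Day 7 over Day 3 comparison. Of these 38, 20 were at least 2-fold lower and 1 higher on Day 7, where 6.49% and 8.04% of all genes were, and the median log2 ratio was -1.07. On Day 14, 16 of 38 were lower than on Day 3 and 3 higher, where 6.83% and 14.4% of all genes were, and the median was -0.74. Between Day 7 and Day 14, 4 of 36 were lower and 5 higher, close to the shares of all genes, 7.34% and 10.9%. Here too, a gene high on 1 day could reach the minimum of 50 UMIs through that day alone. All values of the pathway genes are for spots under tissue unless said otherwise. Among other acute phase proteins 8 of 11 were lower on Day 7, such as *Serpina3n*, a serine protease inhibitor, at 156 CPM on Day 3, 25.7 on Day 7 and 25.8 on Day 14, and *Ptx3*, a long pentraxin, at 48.0, 14.0 and 2.82. On Day 3 the 10 richest spots held 60% of the *Ptx3* UMIs. *C3*, the central complement component, was at 598, 159.8 and 95.4 CPM, and *Lbp*, which carries lipopolysaccharide to its receptor, at 63.2, 18.0 and 20.8. The metallothionein *Mt2* was at 538 and 126 CPM and then 1129.5 CPM on Day 14. *Fga*, *Fgg*, *Apcs* and *Itih4*, plasma proteins of the liver, had no UMI under tissue on any day, and *Crp* had 1 UMI, on Day 7.

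All 3 counted genes of the cytokine list, *Il1b*, *Tnf* and the antagonist *Il1rn*, were lower on Day 7 and on Day 14 than on Day 3. *Il1b* and *Tnf* reached the minimum of 50 UMIs mainly through Day 3, so this count is partly set by the filter. Among genes with too few UMIs to be counted, the intervals of *Il1a*, *Lif* and *Il11* held 0 on both later days. For *Il1a* the log2 ratio to Day 3 was -0.24 on Day 7 and 0.57 on Day 14. *Il1b* gave 468, 14 and 21 UMIs on Day 3, Day 7 and Day 14, or 264, 3.15 and 4.55 CPM, *Tnf* gave 44, 7 and 17 UMIs, and *Il1rn* gave 231, 93 and 182. *Il6* was near the limit of detection, with 6, 2 and 2 UMIs, and *Osm* had 42, 1 and 1. Of 7 receptors and transducers 2 were at least 2-fold lower on Day 7 and none on Day 14. Of 9 transcription factors and regulators 4 were lower on Day 7 and 1 on Day 14, and 3 were higher on Day 14 than on Day 7. *Cebpb*, a factor of the acute phase response, was at 538, 212 and 449 CPM, and *Cebpd* at 62.6, 32.6 and 65.5.

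In the list of binding partners and receptors of the members' proteins, which also holds the haem-degrading enzyme gene *Hmox1*, 3 of 8 were lower and 1 higher on Day 7, and 5 of 7 lower and 1 higher on Day 14. *Cd163*, the receptor that takes up haptoglobin-haemoglobin, was at 70.0 CPM on Day 3, 4.05 on Day 7 and 5.20 on Day 14. *Hmox1* was at 288, 59.4 and 31.7 CPM, and on Day 3 its 10 richest spots held 65.4% of its UMIs. *Slc22a17*, the lipocalin 2 receptor, went the other way, from 8.46 CPM on Day 3 to 21.6 on Day 7 and 24.5 on Day 14. *Fpr2*, a receptor for SAA proteins, gave 10, 2 and 5 UMIs.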

How the data were processed

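Spatial gene expression was measured on 1 wound section per day by Visium. The authors converted reads to gene by spot matrices with Space Ranger 1.3.0 on mm10, and the deposited values are raw UMI counts of all 4992 spots of each slide, with no normalization. Position lists mark the spots under tissue. All 4992 spot barcodes are shared by the 3 slides because the array design is the same. Groups came from the day in the labels. The members, lists and tests were chosen with earlier results of these data known.

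Spots under tissue were 664, 549 and 697, with 1772259, 4442962 and 4611723 UMIs on Day 3, Day 7 and Day 14, and the width of an interval follows the gene's own UMIs. Gene UMIs summed over spots were scaled to 1000000 UMIs (CPM). Sums carry exact Poisson intervals, shares exact Clopper-Pearson intervals and ratios exact conditional binomial intervals, all at 95% and for counting error only. A count of 0 allows up to 3 counts. No spot was treated as a replicate of a day, and no test was made.

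Marker-rich spots were the richest 10% by a list's share of UMIs among spots with at least 500 UMIs. The 12 marker lists hold 10 genes each, 5 for red cells. Moran's I and Pearson correlations used log1p of UMIs per 10000, and named partners are the 5 highest and 3 lowest among genes with at least 100 UMIs, for members with that many. Named pathway genes come from the 5 lists fixed for it, as examples, and other named genes are the 6 members. Thinning drew 1000 UMIs per spot (seed 1). Alternatives were TMM factors (edgeR 4.0.16), size factors (DESeq2 1.42.0), other denominators, spot sets, thinning depths, class sizes and gene minimums. Python 3.11.15, numpy 2.4.6, scipy 1.17.1, pandas 2.3.3, matplotlib 3.10.9 and R 4.3.3 were used. Ratio intervals were checked on simulated Poisson counts, the model they assume, and Moran's I on simulated spots of equal depth. The unequal depth of the unthinned spots was not simulated. The study's deconvolution and wound annotation were not used here.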

Additional observations from a re-analysis of the deposited data

Results flagged for a closer look

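Some marker-rich contrasts of a gene pointed opposite ways on 2 days, each with an interval that excluded 0. The log2 ratio of *Saa3* in granulation-rich spots over the other spots was 1.72 on Day 3 and -2.15 on Day 7, where it rests on 4 and 64 UMIs. The ratio of *Saa3* in spots rich in the hepatocyte list, which is led by *Cyp2e1*, was -1.11 on Day 3 and 1.44 on Day 7, from 12 and 56 UMIs. For *Hp* the macrophage-rich ratio was 0.80 on Day 3 and 0.36 on Day 7, against -0.68 on Day 14. These differences between days were not tested, and the classes were drawn anew in each section.

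Some spots outside the marked tissue held more UMIs of a gene than the upper limit of the richest spot under tissue. For *Hp* these were 1, 10 and 1 spots on the 3 days, with up to 51 UMIs on Day 7 against 16 under tissue. For *Orm1* it was 14 spots on Day 7, with up to 20 UMIs against 3 under tissue. No spot outside passed that limit for *Saa3* or *Lcn2*.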

How the results depend on the processing

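No paired analysis was possible because each day had 1 section, and for the same reason no replicate could be left out. Of 227 alternative values for 55 results, 169 stayed within the counting interval or, for Moran's I, correlations and counts, within 1.5 times, 58 moved and none reversed a ratio whose interval excluded 0. The cause of each move was not tested unless the setting itself shows it. The *Saa3* and *Lcn2* ratios between days stayed within their intervals under every alternative.

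The log2 ratio of *Hp* for Day 7 over Day 3 became -0.82 with the mean of spot CPM, -0.25 over the whole slide and -0.63 without the fat-richest spots, for Day 14 over Day 3 -0.87 over the slide and -0.96 without the fat-richest spots, and for Day 14 over Day 7 -0.62 over the slide. That of *Orm1* for Day 7 over Day 3 became 0.63 with the mean of spot CPM, 0.69 over the slide and 0.19 without its 5 richest spots, for Day 14 over Day 3 0.18 with the mean of spot CPM and 0.13 without the fat-richest spots, and for Day 14 over Day 7 -1.22 over the slide and -0.84 without the epidermis-richest spots. With outside spots of at least 500 UMIs, the Day 3 ratio of outside over marked became -3.20 for *Saa3* and 0.19 for *Lcn2*.

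With thinning to 500, to 2000 and with none, the share of Day 3 spots was 24.2%, 40.7% and 38.0% for *Saa3* and 9.23%, 32.2% and 26.8% for *Hp*. The *Hp* share was 5.94%, 24.3% and 52.8% on Day 7 and 4.50%, 17.3% and 38.2% on Day 14, and the *Saa3* share without thinning was 9.11% on Day 7 and 2.58% on Day 14, where thinning to 500 gave 0.145%. After thinning, Moran's I of *Hp* was 0.10, 0.0555 and -0.0123 on Day 3, Day 7 and Day 14, that of *Orm1* on Day 14 was 0.0763, and the correlation of *Orm1* with *Krtdap* was 0.12.

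For the richest 5% and 20% of Day 3 spots, the *Saa3* ratio was 0.61 and 1.96 for neutrophil, 0.94 and 1.84 for macrophage, 0.56 and 1.36 for fibroblast, -3.26 and -0.95 for fat and -2.75 and -1.55 for epidermis. The *Hp* ratio for fat was 2.56 in the richest 20% on Day 3, 2.18 in the richest 5% on Day 7, and 3.02 and 1.66 in the richest 5% and 20% on Day 14. Among the spots outside, the neutrophil ratio of *Lcn2* was 5.17 on Day 3 and 3.15 on Day 14, the fat ratio of *Hp* was 3.88, 2.82 and 4.46, and that of *Orm1* was 3.40 on Day 3 and 3.80 on Day 7. In a patch of spots with at least 20 *Saa3* UMIs the *Hp* ratio was 2.24. Leaving out the fat-richest or epidermis-richest spots, classes among the spots outside and other patch limits were chosen after seeing the data. With TMM factors, 3 pathway genes were at least 2-fold higher on Day 14 than on Day 7, against 5.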
